A study of Saccharomyces cerevisiae with 49 samples.

Results

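The comparison set 5 samples at phase 208.70 to 239.32 degrees of a yeast oscillation, the early window, against 5 samples at phase 259.84 to 291.30 degrees, the late window, 10 of the 49 samples of the series. The samples were grouped by their labelled phase angle, and the windows were chosen with earlier results of these data known. All came from 1 continuous culture of the haploid yeast strain CEN.PK113-7D (Saccharomyces cerevisiae, mating type a), kept at pH 4.0 and 30 °C with a dilution rate of 0.06 to 0.086 per h. Oscillations returned about every 4 h, and messenger RNA was measured every 5 min on Affymetrix Yeast Genome 2.0 arrays, 1 per sample. The 2 windows shared strain, medium and treatment and differed in phase and in sampling time. Early and late refer to phase: the early window was sampled at 17.5 to 17.83 h, at the end of the series, and the late window at 14.17 to 14.5 h, at its start. Phase and end of the series therefore cannot be told apart from these 10 samples alone. The first 2 samples of the series, at phase 244.11 and 251.97, and the last 2, at phase 246.97 and 254.63, lay at nearly the same phase one cycle apart and measured the offset between the ends. Each window held consecutive samples of that single culture, which the tests treated as independent. In the comparison of window means, p-values reflect the spread within a window, which includes any trend with phase there. No p-value here speaks of the variation among cultures.

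In budding yeast, transcripts of the CLB2 cluster accumulate in G2 and mitosis under the factors Mcm1, Fkh2 and Ndd1, and they encode the mitotic cyclins, the polo kinase Cdc5, the activator Cdc20 of the anaphase-promoting complex and proteins of the contractile ring and septum. When mitotic kinase activity is removed, the transcription factor Swi5 enters the nucleus, and its targets include the kinase inhibitor SIC1. Daughter cells then express genes for chitinase and glucanases that cut the septum. Late in G1 the factors SBF and MBF then switch on the G1 cyclins and the genes of DNA replication. Continuous cultures that oscillate in respiration are known for a partly synchronous cell division tied to the respiratory cycle.

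The labels give phase angles and no cell cycle stage, so the stage was checked against markers. Of 6 G2/M markers (CLB1, CLB2, SWI5, CDC20, CDC5 and HOF1) all 6 were lower in the late window, and their summed signal ran from 8665 to 13325 in the early window and from 3469 to 6216 in the late window, with no overlap. Of 12 markers of early G1 and daughter cells 5 were higher and 0 lower, and their sum ran from 56246 to 92188 and then from 89583 to 100790. Of 7 late G1 markers (CLN1, CLN2, PCL1, CLB5, CLB6, RNR1 and POL1) 3 were higher and 0 lower. Their sums ran from 5936 to 7144 and then from 7590.0 to 8677. The longer list of late G1 and SBF targets was mixed, with 3 of 25 members higher and 7 lower, and the sums of the early G1 markers overlapped between the windows. The fall of the G2/M markers was thus the uniform part of this check, and it does not show what share of the cells took part. All 6 G2/M markers also belong to the CLB2 cluster, and the 5 higher early G1 markers to the daughter-separation list. They are therefore not separate from the results of those lists below.

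Arrays differed in overall brightness. Over S. cerevisiae probe sets the median signal ran from 1579.0 to 1900.5 in the early window and from 1587 to 2314 in the late window, and each array was set to the same median. Probe sets for another yeast species on the same array, a measure of background, had a median signal of 5.2 to 6.0 in the early window and 6.2 to 8.0 in the late window. The array at phase 224.01 stood apart at dim transcripts. Over 221 dim S. cerevisiae probe sets, those with a mean deposited signal below 100, its median was 62.5 against 32.3 to 45.5 in the other 9 arrays. Some results are therefore given with and without it, among them REC114 and several list counts. The counts of dim probe sets called are given only with it. A 3′-to-5′ comparison of probe sets for TDH1, ACT1, RIP1 and SPT15, which follows RNA integrity, overlapped between the windows.

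Most genes of the CLB2 cluster (21 of 23) fell between the windows, 6 of 13 genes of daughter-cell separation rose, and the late G1 list held both rises (3 of 25) and falls (7 of 25). Of 5472 probe sets tested (5430 genes), 264 (4.82%) were lower and 158 (2.89%) higher in the late window, 422 (7.71%) in all, at an adjusted p below 0.05 in limma with Benjamini-Hochberg adjustment. Of those called, 37.4% were higher, against 30% with the values as deposited and 51.7% with quantile normalization. Most differences were small: the median log2 difference was -0.29 among probe sets called lower, 0.24 among those called higher and -0.004 over all. A difference of 2-fold or more was reached by 30 of the lower (0.548%) and 0 of the higher probe sets (0%), the largest log2 difference upward being 0.95. The 2 groups of samples did not overlap in 462 probe sets (8.44%), which included 334 of the 422 called. Among probe sets with a mean signal below 100, 17 were called lower and 0 higher. In a bulk culture, fewer cells in a stage and less RNA per cell cannot be told apart.

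**Figure D1:**
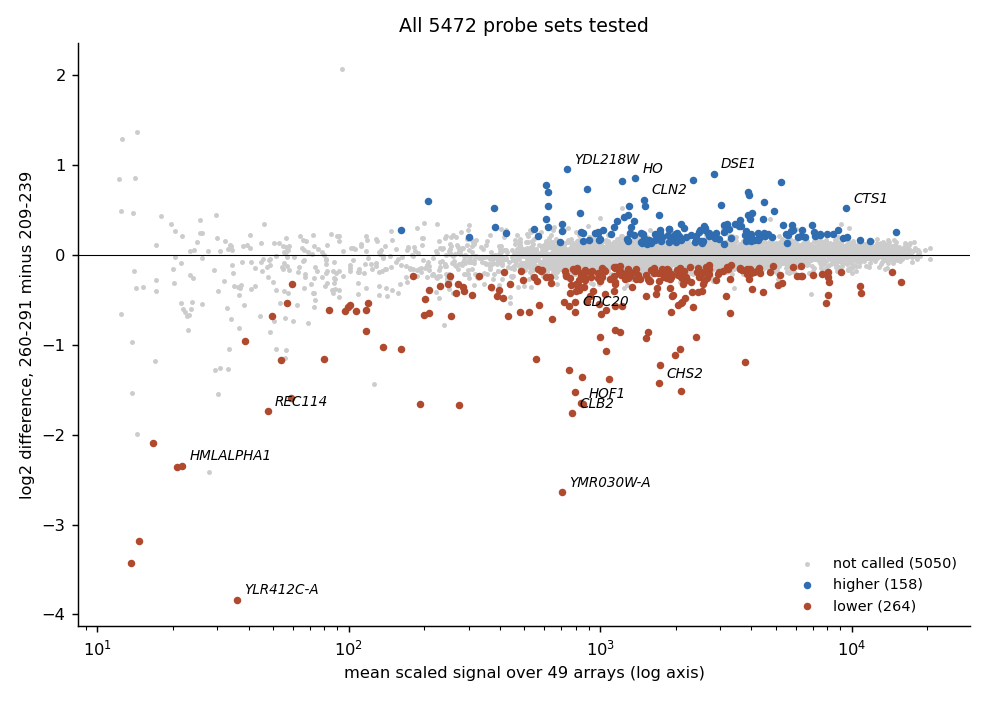
The log2 difference of each of the 5472 probe sets tested (the late window minus the early window, vertical axis) against its mean signal over the 49 arrays (log axis), with probe sets called lower in red and called higher in blue. The horizontal axis is labelled as scaled, but its values are means of the signals as deposited. The lower calls reach further from 0 than the higher calls, whose largest log2 difference is 0.95, and the most extreme lower values lie at dim probe sets.

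The CLB2 cluster was the list with the most uniform change. Of 23 members tested 21 fell and 0 rose, also without the array at phase 224.01, with a median log2 difference of -0.91 against -0.005 over all genes. The share lower was 91.3%, against 4.82% over all probe sets. The members not called were TEM1, the GTPase at the head of the mitotic exit network, and NUM1, a cortical anchor of dynein. CLB2, the main mitotic cyclin, had signals of 1249.9, 1165, 1086, 906 and 862 in the 5 samples from phase 208.70 to 239.32, and 489, 379, 274, 224 and 239.1 in those from phase 259.84 to 291.30. Each sample of the late window was below each of the early window, and the lowest values were the last 2. CLB2 fell 3.4-fold, from 1054 ± 166 to 321 ± 112 (SD, n = 5 samples each), a log2 difference of -1.76 with SE 0.20 (limma adjusted p = 0.0022). Its fellow cyclin CLB1, chosen after its values were seen, fell 2.86-fold (adjusted p = 0.00265).

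The transcription factor and the enzymes of mitotic exit in the cluster fell by unequal amounts. SWI5, the factor that later drives SIC1, had signals of 1925, 1825, 1612, 1573 and 1372 and then 996, 654, 676, 541 and 420. Its groups did not overlap, and it fell 2.61-fold (log2 difference -1.39, SE 0.19; adjusted p = 0.00276 by limma). CDC5, the polo kinase, fell 2.06-fold, from 2770.3 ± 413 to 1349 ± 248 (SD, n = 5 samples each). CDC20, the activator that starts anaphase, had signals of 1400, 1321, 1189.5, 1185 and 1012 and then 869, 802, 777, 751 and 727. These groups too did not overlap, but the spread within the late window was narrow, and CDC20 fell by only 1.55-fold (adjusted p = 0.00235 in limma). SPO12, a small regulator of Cdc14 release, fell 1.81-fold. AIM20, a gene of little known function that belongs to the cluster, fell 3.15-fold, about as far as HOF1.

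Among 29 genes of mitotic exit and the anaphase-promoting complex, the median log2 difference was -0.05, or 0.007 with the values as deposited. Of the 29 genes 8 fell (27.6%, against 4.82% over all probe sets) and 0 rose. The 8 were CDC5, SPO12, CDC20, DBF2, MOB1, NET1, APC5 and CDC14. CDC5, SPO12, CDC20, DBF2 and MOB1 also belong to the CLB2 cluster and were counted there. DBF2 and MOB1, the kinase of the mitotic exit network and its partner, were chosen after their values were seen and had log2 differences of -0.53 and -0.48. TEM1 had a log2 difference of -0.20 (adjusted p = 0.108) with overlapping groups, and it was called only without the sample at phase 239.32 (adjusted p = 0.0349). Most subunits of the anaphase-promoting complex and of the signalling network were among the 21 members that did not pass the test. Of 35 spindle and kinetochore genes 6 fell (17.1%, against 4.82% over all probe sets) and 0 rose, at a median log2 difference of -0.07. As deposited, 0 of these 35 were called in limma (3 were lower at an unadjusted p below 0.05), and 1 was within the ends. The largest were ASE1, a protein that bundles microtubules in the spindle midzone and also belongs to the CLB2 cluster, at -0.55 (adjusted p = 0.00235), and NUF2, a kinetochore subunit, at -0.48 (adjusted p = 0.0105).

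The genes for the ring and septum that divide the cell fell in part. Of 24 such genes 9 fell (37.5%, against 4.82% over all probe sets) and 0 rose, with a median log2 difference of -0.18. Among the 9, HOF1, CHS2, MYO1, IQG1, BUD3 and BUD4 also belong to the CLB2 cluster and were counted there. As deposited, 3 of these 24 genes and 3 of the 29 of mitotic exit were called lower. HOF1, which links the contractile ring to septum formation, had signals of 2000.1, 1778, 1573, 1334 and 1146 and then 772, 534, 479.7, 363 and 388. No sample of the late window reached the lowest of the early window, and HOF1 fell 3.14-fold (log2 difference -1.65, SE 0.21, limma adjusted p = 0.00235). CHS2, the chitin synthase of the primary septum, had signals of 3434, 3099, 3142, 2587 and 2279.5 and then 1671, 1461, 1009, 760 and 743. The groups stayed apart, with the last 2 samples lowest, and CHS2 fell 2.69-fold (adjusted p = 0.00466).

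The ring's motor and scaffold fell less than HOF1 and CHS2. MYO1, the type II myosin, fell 1.49-fold and IQG1, the IQGAP scaffold, 1.49-fold, both chosen after their values were seen. Among the septins, CDC3 fell 1.32-fold, CDC10 1.37-fold and SHS1 1.2-fold, also chosen after their values were seen. CDC10 signals overlapped between the groups, and its call was kept only without the sample at phase 224.01, 231.67, 259.84 or 275.57 when 1 of the 10 was left out (adjusted p up to 0.0736).

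**Figure D2:**
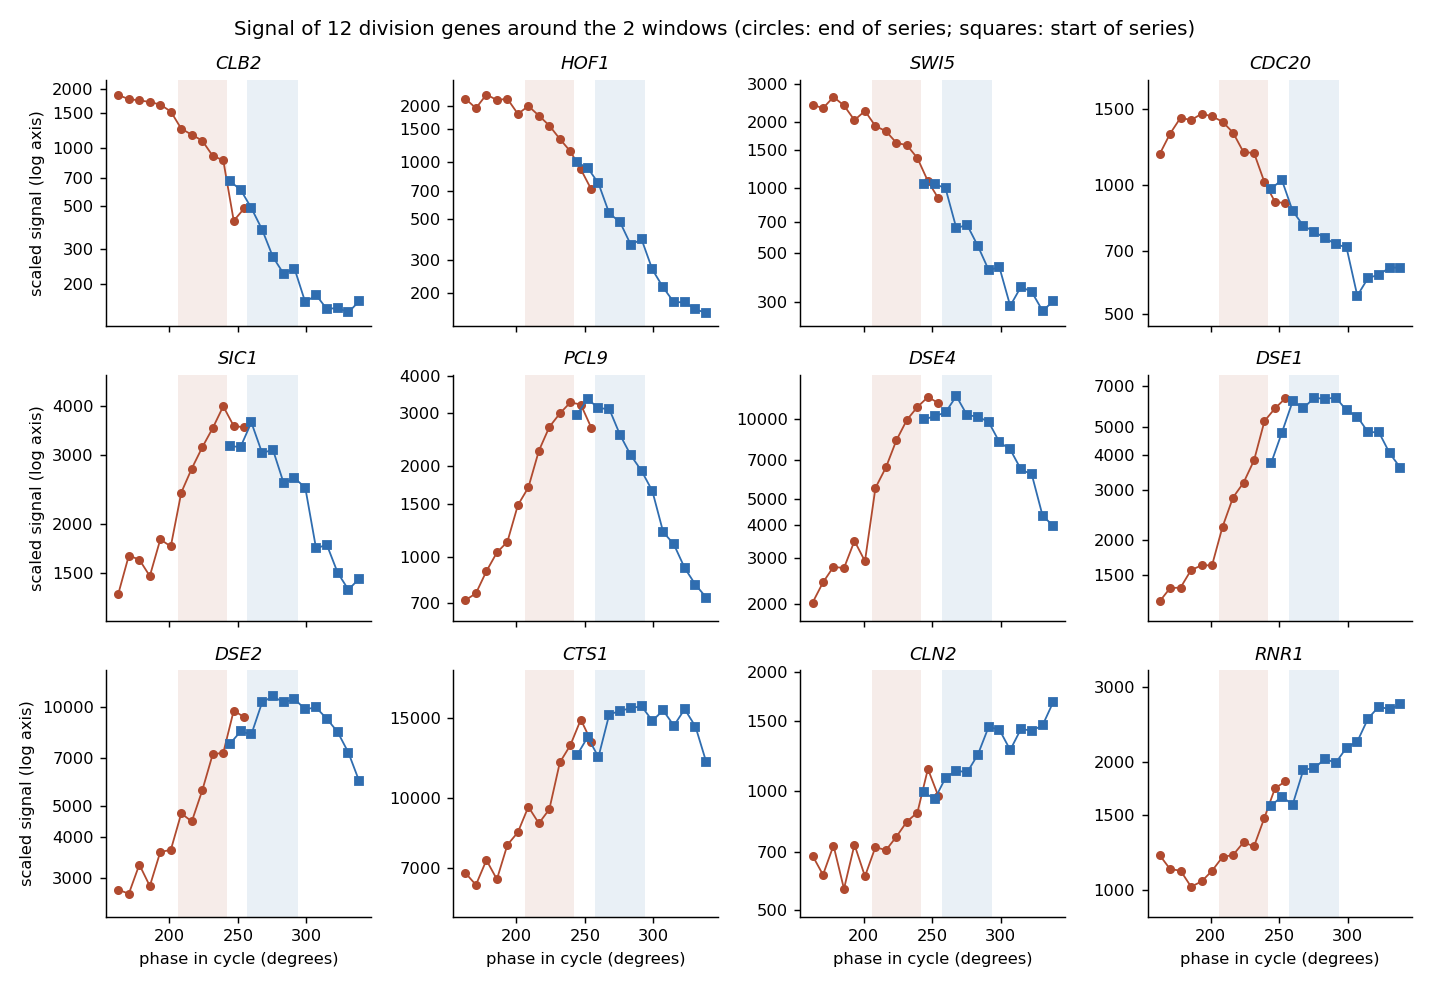
Scaled signal (log axis) of 12 division genes against phase in the cycle in degrees, from phase 162.78 to 338.50, with each point 1 sample, circles for samples at the end of the series and squares for samples at its start, and the 2 windows shaded. CLB2, HOF1, SWI5 and CDC20 descend through both windows, SIC1 and PCL9 turn down between them, DSE1 and DSE2 climb into the late window and descend after it, and CLN2 and RNR1 are higher in the late window than in the early window, while the circles and squares that lie between the windows show the offset between the ends of the series.

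Genes of daughter-cell separation rose. Of 13 members of this list 6 were higher and 0 lower in the late window (5 higher without the array at phase 224.01), with a median log2 difference of 0.52. The share higher was 46.2%, against 2.89% over all probe sets. DSE1, which encodes a daughter-specific protein, had signals of 2226, 2825, 3185, 3819 and 5260.4 and then 6168, 5839, 6355, 6295 and 6367. The samples of the early window climbed in order of phase, those of the late window varied little, and the groups did not overlap. DSE1 rose 1.87-fold, from 3463 ± 1159 to 6205 ± 219 (SD, n = 5 samples each; limma adjusted p = 0.0148).

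DSE2, a daughter-specific secreted protein that helps degrade the septum, had signals of 4739, 4475, 5571, 7193 and 7253 and then 8267, 10365, 10804, 10347 and 10594. The groups did not overlap, although the sample at phase 259.84 lay below the other 4 of its group, and DSE2 rose 1.75-fold (adjusted p = 0.00796 in limma). CTS1, the endochitinase that cuts the primary septum, had signals of 9558, 8788, 9440.4, 11983 and 13082 and then 12323, 15301, 15591, 15804 and 15962. Here the sample at phase 259.84 was below the highest of the early window, so the groups overlapped, and CTS1 rose 1.43-fold (adjusted p = 0.0214), a call lost without the sample at phase 216.36, 224.01, 275.57, 283.44 or 291.30 (adjusted p up to 0.0588). SCW11, a cell wall glucanase, rose 1.62-fold, SUN4, a wall protein of the SUN family, 1.58-fold and PRY3, a secreted sterol-binding protein of the daughter cell wall, 1.78-fold. The call of PRY3 was lost without the sample at phase 216.36 (adjusted p up to 0.055) and that of SCW11 lost without the sample at phase 216.36, 275.57 or 291.30 (adjusted p up to 0.0551). When only differences within the ends of the series were used, 0 members were called in limma (8 were higher at an unadjusted p below 0.05), at a median log2 difference of 0.63 and with a larger error. The first 2 samples were below the last 2 at nearly the same phase by a median of 0.24 on the log2 scale over this list, a shift opposite to the rise.

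The other 7 members of the list did not pass the test between the windows. They were DSE3, DSE4, EGT2, AMN1, ASH1, BUD9 and NIS1. DSE4, the glucanase that opens the septum from the daughter side, had signals of 5505, 6580.3, 8334, 9949.8 and 11121 and then 10614, 12231, 10359, 10231 and 9765. The early window climbed in order of phase, and the groups overlapped (log2 difference 0.40, SE 0.17, adjusted p = 0.171 in limma). ASH1, the repressor that keeps daughter cells from switching mating type, had a log2 difference of -0.08 (adjusted p = 0.684), and EGT2, a wall protein active in early G1, 0.21. AMN1, the daughter-specific antagonist of mitotic exit, had 0.22 and DSE3 0.29. Without the sample at phase 239.32, the last of the early window, EGT2, AMN1, BUD9 and NIS1 were called higher, at adjusted p between 0.0238 and 0.0492.

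A comparison of window means misses a transcript that climbs through the early window and drops through the late window. A mean and a slope on phase were therefore fitted for each window in 1 model, a test added after the data were seen. Within the early window, 32 probe sets (0.585%) rose and 26 (0.475%) fell, and within the late window, 8 (0.146%) rose and 28 (0.512%) fell. The slopes of the 2 windows differed for 33 probe sets, 27 of them downward (0.493%) and 6 upward (0.11%). These counts depended on single samples. Of 58 slopes within the early window, 0 were called without the sample at phase 208.70 or that at phase 239.32, 30 without phase 216.36 and 37 without phase 231.67. Of 36 within the late window, 11, 21, 23, 10 and 6 were called without its samples in order of phase. Of the 33 differences of slopes, 0 were called without phase 208.70 or 291.30 and 8 without phase 239.32. As deposited, without median scaling, the array medians themselves fell through the late window and 2089 slopes were called there, so the slopes below are relative to the array median.

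Daughter-separation genes rose within the early window, and within the late window their slopes did not pass the test. Of the 13 members 10 had a called upward slope within the early window, 0 had a called slope within the late window (4 at an unadjusted p below 0.05 in limma), and for 7 the slopes differed. The median slope was 0.75 per 30 degrees on the log2 scale in the early window and -0.05 in the late window, against 0.009 and 0.019 over all genes. PRY3 rose by 1.15 log2 units per 30 degrees (SE 0.10, limma adjusted p = 0.00202), DSE1 by 1.14 and DSE4 by 1.03. BUD9, a landmark of the birth-scar pole, rose by 1.04 and NIS1, a protein of the bud neck, by 0.71, both chosen after their values were seen. DSE4 and DSE3 had the highest signal of all 49 samples at phase 267.71, and PRY3, EGT2, AMN1 and NIS1 at phase 246.97, between the windows. BUD9 had it at phase 254.63, ASH1 at 239.32 and CTS1 at 291.30. DSE1, SCW11 and SUN4 had it at phase 9.70 and DSE2 at phase 17.35, outside both windows.

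SIC1 rose within the early window, and its slope differed between the windows. SIC1, the inhibitor of Cdc28 kinase with B-type cyclins, had signals of 2407, 2770.5, 3137, 3511 and 3987 from phase 208.70 to 239.32 and 3628, 3033, 3093, 2542 and 2619 from phase 259.84 to 291.30. The early window climbed without exception and its last sample was the highest of all 49. The late window was lowest in its last 2 samples, and the difference of the group means did not pass the test (3162 ± 617 and 2983 ± 435, SD, n = 5 samples each; adjusted p = 0.781 in limma). The slope of SIC1 was 0.70 per 30 degrees (adjusted p = 0.00801) and then -0.46 (adjusted p = 0.0595), and the slopes differed (adjusted p = 0.00712).

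PCL9, a cyclin of the Pho85 kinase that is expressed in early G1, had signals of 1698, 2249, 2698, 2992 and 3256 and then 3114, 3098, 2542, 2174 and 1928. It climbed through the early window and fell through the late window, with group means of 2579 ± 618 and 2571 ± 535 that were nearly equal. Its slopes were 0.90 and -0.72 per 30 degrees, the largest difference among the 33 that were called (adjusted p = 0.00712 in limma). The highest PCL9 signal of the 49 samples, 3344, lay at phase 251.97, between the windows.

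Of 16 genes in the list of SIC1 and Swi5 targets 1 was lower in the late window (6.25%, against 4.82% over all probe sets) and 0 higher. That gene, CIS3, a wall glycoprotein, fell 1.45-fold and fell already within the early window (slope -0.66, adjusted p = 0.0117). Within the early window, 4 members rose (SIC1, PCL9, CYK3 and CHS1) and within the late window, 4 fell (PCL9, CYK3, PCL2 and CDC6), and for 6 the slopes differed. CYK3, an SH3 protein that acts in septum formation, had slopes of 0.57 and -0.74, and CHS1, the chitin synthase that repairs the wall after separation, of 0.45 and -0.31, both chosen after their values were seen. CDC6, the loader of the replicative helicase, had signals of 736, 826, 918, 907 and 902 and then 861, 824, 719.8, 568 and 555. The last 2 samples were the lowest, the slope in the late window was -0.69 (adjusted p = 0.0209), and the groups overlapped.

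**Figure D3:**
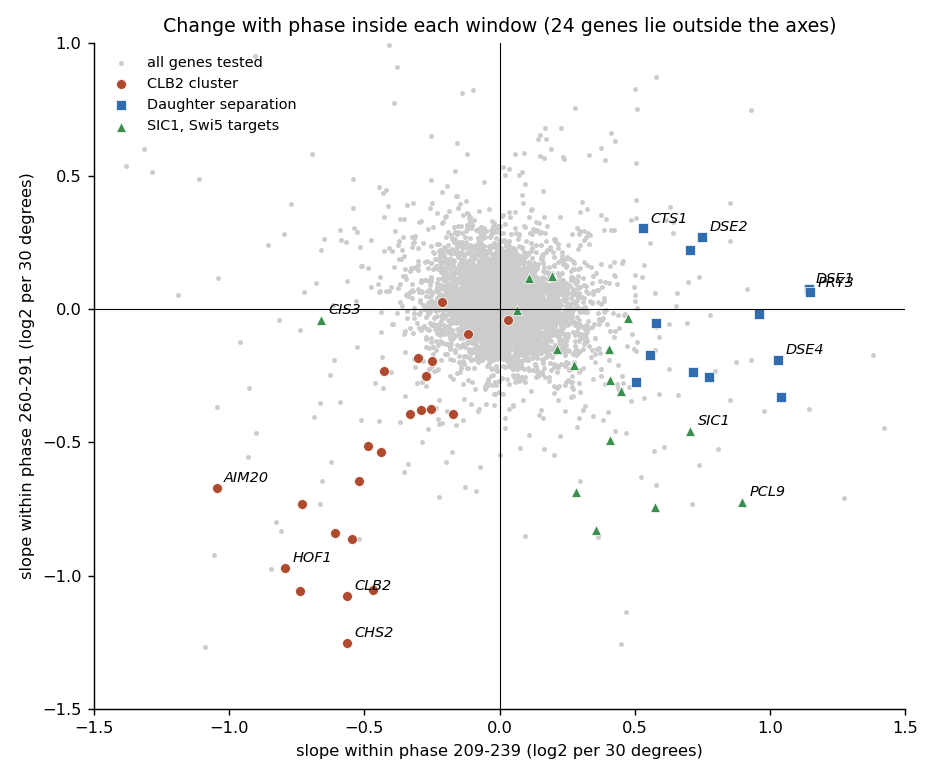
Slope of each gene within the late window against its slope within the early window, both in log2 units per 30 degrees, with 3 lists coloured and all other genes tested in grey. CLB2 cluster genes lie mostly at the lower left, falling in both windows, daughter-separation genes lie to the right near a vertical value of 0, and SIC1 and PCL9 lie at the lower right, rising and then falling.

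The CLB2 cluster fell within both windows. Of its 23 members 9 had a called downward slope within the early window and 13 within the late window, 0 had a called upward slope in either, and for 0 did the slopes differ by limma's adjusted p (8 at an unadjusted p below 0.05). CHS2 had a slope of -1.25 log2 units per 30 degrees in the late window (adjusted p = 0.00435 in limma), CLB2 of -1.08 and SWI5 of -1.05. HOF1 had slopes of -0.79 and -0.97, both called.

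Among the late G1 markers, the cyclins CLN2 and PCL1 rose, while CLN1, CLB5, CLB6 and POL1 did not pass the test. Part of the genes of DNA replication rose too. CLN2, a G1 cyclin, had signals of 721, 708, 766, 836 and 881 and then 1079, 1125, 1113, 1234 and 1451. The groups did not overlap, the last sample was the highest of the 10, and CLN2 rose 1.53-fold, from 782 ± 74.6 to 1200.4 ± 152 (SD, n = 5 samples each; limma adjusted p = 0.00317). PCL1, a Pho85 cyclin of late G1, had signals of 319, 356, 326, 416 and 334 and then 517, 499.5, 631, 670.2 and 797. All samples of the late window exceeded all of the early window, and PCL1 rose 1.76-fold (adjusted p = 0.00414). HO, the mating-type endonuclease, which mother cells transcribe in late G1, had signals of 309.6, 352, 460, 338 and 439.9 and then 544, 582, 746, 702 and 859.6. HO rose 1.8-fold (limma adjusted p = 0.00626). It was named for the size of its difference among genes whose groups do not overlap, so the lack of overlap follows from the choice.

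The list of late G1 and SBF targets moved both ways, with 3 of 25 higher (CLN2, PCL1 and SVS1) and 7 lower, at a median log2 difference of 0.02. The shares were 12% higher and 28% lower, against 2.89% and 4.82% over all probe sets. The largest drops were in YHP1, a repressor that acts at early G1 promoters, at -1.07 (adjusted p = 0.0059), and GIC1, an effector of Cdc42 in bud emergence, at -0.52 (adjusted p = 0.0197), a call lost without the sample at phase 216.36, 283.44 or 291.30 (adjusted p up to 0.0564). The others were RSR1, GAS1, MSB2, GIC2 and NDD1. Over the series without its last 2 samples, YHP1 and GIC1 had their highest signal at phase 109.2. Of 34 replication genes and MBF targets 7 were higher and 1 lower, with a median log2 difference of 0.13 and 28 of 34 positive. Called higher were 20.6%, against 2.89% over all probe sets, and called lower 2.94%, against 4.82%. As deposited and within the ends 1 was called higher, and with quantile normalization 11.

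RNR1, the large subunit of ribonucleotide reductase, had signals of 1197, 1209, 1295, 1267 and 1481 and then 1588, 1917, 1934, 2033 and 1990.4. The groups did not overlap, and RNR1 rose 1.47-fold (log2 difference 0.55, SE 0.08, limma adjusted p = 0.00277). POL30, the sliding clamp PCNA, rose 1.27-fold (adjusted p = 0.0103), and MCD1, MSH6, CDC21, TOF1 and PRI2 were the other higher members. POL32, a small subunit of polymerase delta, fell by 0.16 on the log2 scale (adjusted p = 0.0423) with overlapping groups, a call kept only without the sample at phase 208.70 or 259.84 when 1 of the 10 was left out (adjusted p up to 0.103). RNR1 levels here were far from their maximum, 10549 at phase 32.66, in the next part of the cycle. CLN2 and PCL1 also had their highest signals there, 4145 at phase 32.66 and 3968 at phase 40.31. CLN3, the most upstream G1 cyclin, had group means of 2043 ± 158 and 2042 ± 37.7 (adjusted p = 0.987), and within the ends of the series its log2 difference was 0.29 (SE 0.11, adjusted p = 0.341). Of 11 licensing and early G1 box genes 1 was lower, MCM7 of the helicase, at -0.21 (adjusted p = 0.0369), a call kept only without the sample at phase 259.84 or 267.71 when 1 of the 10 was left out (adjusted p up to 0.0901). Of 9 histone genes 1 was higher, HTB2 of histone H2B, at 0.23, and 1 lower, HTZ1 of the H2A.Z variant, at -0.16. A single gene made up 9.09% of the licensing list and 11.1% of the histones. Over all probe sets 4.82% were lower and 2.89% higher. The call of HTB2 was kept only without the sample at phase 239.32, 259.84, 267.71 or 291.30 when 1 of the 10 was left out (adjusted p up to 0.0807) and that of HTZ1 was kept only without the sample at phase 231.67, 239.32 or 275.57 when 1 of the 10 was left out (adjusted p up to 0.0899).

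**Figure D4:**
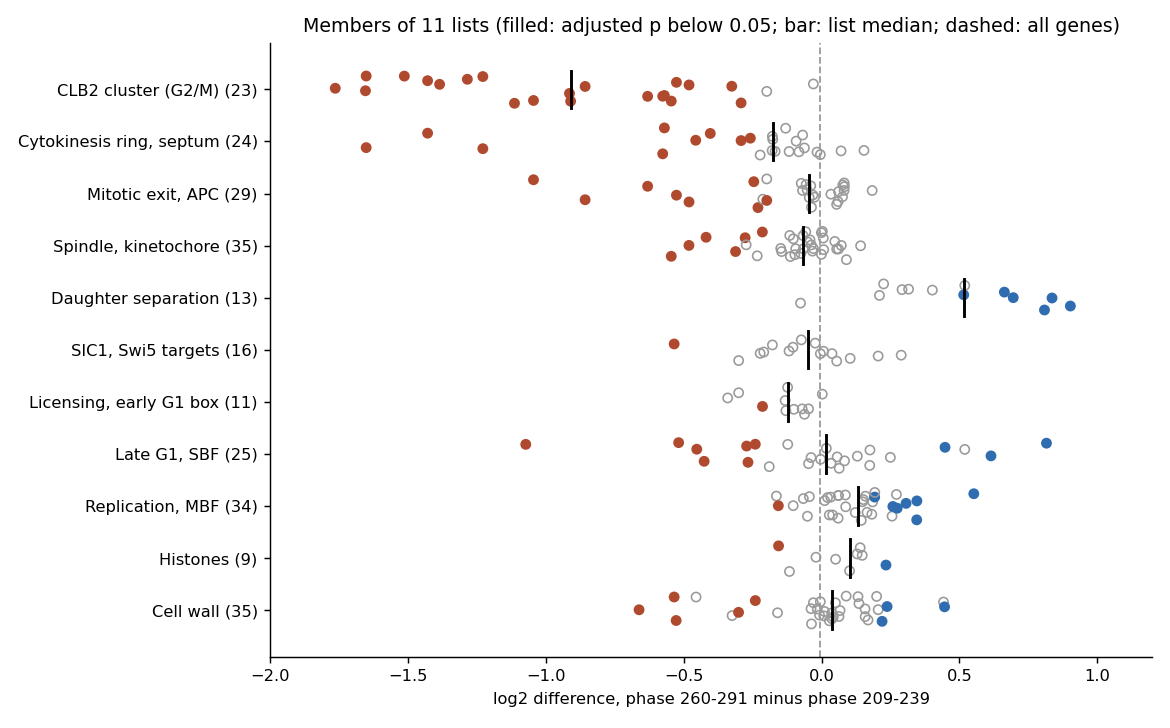
Log2 difference of each tested member of 11 lists (the late window minus the early window), filled where the adjusted p was below 0.05, with a bar at the list's median and a dashed line at the median of all genes. The 23 CLB2 cluster genes lie at or below 0 with 21 called, the 13 daughter-separation genes lie mostly above 0 with 6 called, and the late G1 list has called members on both sides.

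The largest difference upward was in YDL218W, a gene of unknown function. Its signals were 539, 657, 669, 694 and 754 and then 945, 1207, 1286, 1489 and 1552. Both windows rose with phase, for a 1.94-fold rise (adjusted p = 0.00276 in limma). Here and below, genes named for the size of their difference were picked among those whose groups do not overlap. For them the lack of overlap follows from the choice and is no added result. It was also among the 4 probe sets called higher within the ends of the series (log2 difference 1.12). YLR285C-A, next to CTS1 in the RefSeq gene table of assembly R64, rose 1.71-fold (adjusted p = 0.00407), and GFD2 rose 1.63-fold.

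The largest differences downward were in dim or little studied transcripts. YMR030W-A, the neighbour of HOF1 in the same gene table, had signals of 2333, 1561, 1189, 1886 and 1249 and then 508, 398, 234, 151 and 152. The last 2 samples were lowest. It fell 6.23-fold (log2 difference -2.64, SE 0.34, limma adjusted p = 0.00235), against 3.14-fold for HOF1. YMR001C-A, the neighbour of CDC5, fell 3.17-fold (adjusted p = 0.00576). Whether these signals come from transcripts of the neighbouring genes was not tested.

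Of the 30 probe sets that fell by 2-fold or more 10 had a mean signal below 100. In 4 of them, YLR412C-A, MEI5, YDR194W-A and GAT3, every sample of the late window had a scaled signal below 11.71, so only levels are given. That limit is the level that 75% of the other-species probe sets did not exceed in their mean signal as deposited. YLR412C-A had signals of 47.5, 63.5, 79.8, 24.8 and 29 and then 8.7, 1.7, 3.1, 3.4 and 1.9. MEI5, which acts in meiotic recombination, had 8.6, 55.1, 61.4, 31.8 and 25.5 and then 0.2, 2.2, 7.6, 2.1 and 4.6. The first MEI5 sample was itself below 11.71.

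REC114, which helps form the double-strand breaks of meiosis, had signals of 58.2, 129, 154, 67.4 and 74.7 and then 32.3, 21.8, 28, 30.2 and 23.6. The groups did not overlap, and the array at phase 224.01 gave the highest value. REC114 fell 3.34-fold (log2 difference -1.74, adjusted p = 0.00328 in limma), and without that array the log2 difference was -1.54 (adjusted p = 0.00683). HMLALPHA1 had signals of 30.5, 67.5, 67, 47.4 and 42.4 and then 17, 2.5, 11.4, 12.6 and 13.5. The groups did not overlap, but the mean of the late window and 2 of its 5 samples were below 11.71, so only levels are given. It is the alpha1 gene of the silent HML cassette, which shares its sequence with the copy at a MAT alpha locus. The signal alone cannot tell such copies apart, and the strain is a haploid of mating type a, as given above.

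Of 29 meiosis and sporulation genes 3 fell (10.3%) and 0 rose, at a median log2 difference of -0.13 with 21 of 29 negative (-0.006 with quantile normalization). Without the array at phase 224.01, 2 were called lower. The 3 were REC114, SPS4 and ZIP1, and SPS4 fell from 199.7 ± 49.2 to 96.4 ± 15.5 (SD, n = 5 samples each). Without that array the log2 difference of SPS4 was -0.97 (limma adjusted p = 0.0185). The summed signal of 9 sporulation markers ran from 5127 to 5863 in the early window and from 5272 to 6622 in the late window. Of 7 a-specific genes 1 fell, STE2, the alpha-factor receptor, by 0.13 on the log2 scale (adjusted p = 0.0465), a call kept only without the sample at phase 216.36 or 259.84 when 1 of the 10 was left out (adjusted p up to 0.119). Of 5 alpha-specific genes 0 were called by limma, and 0 had an unadjusted p below 0.05 (1 was called higher with quantile normalization). The summed signal of 5 a markers was 25688 to 28555 and then 25691 to 26981, and that of 4 alpha markers was 2426 to 2815 and then 2539 to 2788, so neither set was at background. Of 28 pheromone response genes 2 fell, CIK1 and FUS1, and 0 without the array at phase 224.01 (8 of the 28 were lower at an unadjusted p below 0.05 in limma over all 10 samples). Of 13 reference genes often used for normalization 1 fell, TUB1, at -0.22 (limma adjusted p = 0.0161), and its sample at phase 208.70 lay above the other 4. The shares lower were 14.3% of the a-specific, 7.14% of the pheromone response and 7.69% of the reference genes, against 4.82% over all probe sets.

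Of 24 genes of gluconeogenesis and acetate use 7 fell (4 without the array at phase 224.01) and 1 rose, with a median log2 difference of -0.03 (0.022 with the values as deposited, where 0 were called lower in limma and 2 were lower at an unadjusted p below 0.05). In this list 29.2% were lower and 4.17% higher, against 4.82% and 2.89% over all probe sets. FBP1, the fructose bisphosphatase, had a log2 difference of -0.41 (adjusted p = 0.0236), a call lost without the sample at phase 216.36, 224.01, 275.57 or 283.44 (adjusted p up to 0.0648). ICL1, the isocitrate lyase of the glyoxylate cycle, had signals of 3158, 3174, 3030.3, 2928 and 3293 and then 2650.4, 2478, 2231, 2237 and 2395. Its groups did not overlap and it fell 1.3-fold (adjusted p = 0.00301 in limma). Its first 2 samples of the series, at 4194 and 2872, stood above its last 2, at 2604 and 2248, a difference opposite to its fall between the windows. ALD3, a cytosolic aldehyde dehydrogenase, rose 1.66-fold (adjusted p = 0.0183), a call lost without the sample at phase 216.36 or 291.30 (adjusted p up to 0.0528).

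Of 70 mitochondrial ribosome genes 8 fell (5 without the array at phase 224.01) and 0 rose, and 66 of 70 differences were negative at a median of -0.10. As deposited, 0 of the 70 were called, 0 had an unadjusted p below 0.05 in limma and 50 differences were negative. NAM9, a protein of the small subunit, had the largest at -0.24 (adjusted p = 0.00276) and MRPS17 had -0.22, a call kept only without the sample at phase 208.70 or 259.84 when 1 of the 10 was left out (adjusted p up to 0.0979). In the respiratory chain 1 of 39 fell and 1 rose: CYC1, the main cytochrome c, fell 1.27-fold and CYC7, its hypoxic isoform, rose 1.23-fold, a call lost without the sample at phase 216.36, 224.01, 275.57, 283.44 or 291.30 (adjusted p up to 0.07). Of 17 genes of the tricarboxylic acid cycle 0 were called by limma (2 at an unadjusted p below 0.05, and 5 called lower with quantile normalization). Of 40 peroxisome and fatty acid oxidation genes 5 fell and 0 rose. As deposited, 0 of these 40 were called or had an unadjusted p below 0.05 in limma. The shares lower were 11.4% of the mitochondrial ribosome, 2.56% of the respiratory chain and 12.5% of the peroxisome list, against 4.82% over all probe sets. In the respiratory chain 2.56% were higher, against 2.89%.

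Of 125 ribosome biogenesis genes 9 rose and 0 fell, at a median log2 difference of 0.05 with 91 positive. As deposited 1 was called higher, and with quantile normalization 19. DIM1, a methylase of ribosomal RNA, rose from 809.6 ± 186 to 1158 ± 56.6 (SD, n = 5 samples each) with overlapping groups, a call lost without the sample at phase 216.36, 283.44 or 291.30 (adjusted p up to 0.055). NSR1, a nucleolar protein, had a log2 difference of 0.35, a call kept only without the sample at phase 224.01, 259.84 or 267.71 when 1 of the 10 was left out (adjusted p up to 0.0894). Of 23 trehalose and glycogen genes 2 rose, GSY2, the main glycogen synthase, 1.4-fold and TSL1, a subunit of trehalose synthase, 1.14-fold, the latter call kept only without the sample at phase 239.32 or 259.84 when 1 of the 10 was left out (adjusted p up to 0.0983). Of 29 genes of redox defence 2 rose, TSA2 at 0.54 and CTT1, and of 35 proteasome genes 0 were called by limma (2 at an unadjusted p below 0.05). Among cell wall genes 3 of 35 rose (1 without the array at phase 224.01) and 5 fell, from UTR2, a chitin transglycosidase, at -0.66 to YPS3, a surface protease, at 0.45. The ammonium permease MEP3 fell 1.53-fold, the largest of 3 falls among 22 permeases. IMD2, of guanine nucleotide synthesis, had a log2 difference of -0.68. The call of IMD2 was kept only without the sample at phase 208.70, 259.84, 267.71 or 275.57 when 1 of the 10 was left out (limma adjusted p up to 0.0896). Called higher were 7.2% of the ribosome biogenesis genes, 8.7% of the trehalose and glycogen genes and 6.9% of the redox defence genes. Of the cell wall genes 8.57% were higher and 14.3% lower, and of the permeases 13.6% were lower. Over all probe sets 2.89% were higher and 4.82% lower.

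The other lists held few calls. Of 64 genes of amino acid synthesis 1 rose and 2 fell, of 31 genes of sulfur and methionine metabolism 2 fell, and of 30 genes of purine and pyrimidine synthesis 1 rose and 1 fell. Of 25 glycolysis genes 3 rose, and of 18 hexose transporters 1 rose and 1 fell. Of 28 heat shock genes 2 rose, of 23 stationary phase genes 3 rose and of 30 autophagy genes 1 rose and 1 fell. Of 28 subunits of RNA polymerases I and III 2 rose, and of 19 tRNA synthetases 1 fell. Of 25 ergosterol genes 2 rose, of 26 genes of fatty acid and phospholipid synthesis 1 rose and 1 fell, and of 19 phosphate and 22 iron genes 1 rose in each list. Over these 14 lists between 0% and 13% of members were higher and between 0% and 6.45% lower, against 2.89% and 4.82% over all probe sets. The highest shares were those of stationary phase (13%) and glycolysis (12%), where 1 and 0 genes were called higher without the array at phase 224.01.

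Some genes had a higher slope in the late window than in the early window. These genes were chosen after their slopes were seen. DBP2, an RNA helicase, had slopes of -0.16 and 0.63 per 30 degrees, the second called (adjusted p = 0.0142 in limma). MUP1, the high-affinity methionine permease, had signals of 1775, 1518, 1509, 1332 and 1025 and then 1306, 1429.9, 1561, 1655 and 2059.6. It fell through the early window and rose through the late window, and its slopes differed by 1.28 (adjusted p = 0.00712). AAH1, adenine deaminase, had slopes of -0.43 and 0.43, and MET3, ATP sulfurylase, of -0.49 and 0.15, and for both the slopes differed.

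The offset between the ends of the series was measured with the first 2 and last 2 samples. Of the 5472 probe sets 1 (0.0183%) differed between them at an adjusted p below 0.05, and 376 at an unadjusted p below 0.05. It was YER188C-A, a gene of unknown function, named here for that call, with signals of 328 and 285 in the first 2 and 571 and 627 in the last 2. It was also called lower between the windows (log2 difference -0.68), whereas the sum of its differences within each end of the series was 0.29, of the opposite sign. CLB2 had 672 and 608 in the first 2 samples and 421 and 487 in the last 2, a difference opposite to its fall between the windows. HOF1 had 999 and 935 and 918 and 717.

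Changes within each end add up to an estimate free of that offset, with a larger error (median SE 0.098 against 0.051). It uses the same 10 window samples, so it is no independent check of the calls. By its own test 25 probe sets were lower and 4 higher. Of the 23 CLB2 cluster genes 15 were called lower, with a median log2 difference of -1.14, and RNR1 was called higher at 0.68.

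The samples next to the windows, which the calls did not use, were compared as a description. They lie at the same ends of the series as the windows they adjoin, so phase and end of the series cannot be told apart here either. Between the 6 samples at phase 162.78 to 201.05 and the 6 at phase 299.17 to 338.50, 237 of the 264 lower probe sets (89.8%) had a lower mean, against 44.8% of all tested, and 155 of the 158 higher ones (98.1%) a higher mean, against 55.2%. In the 35 samples outside the windows and the first and last pairs, the highest signal of 9.47% of the lower probe sets lay at phase 180 to 240 and that of 10.6% at phase 120 to 180, against 1.72% and 4.75% of all tested. At phase 60 to 120 lay the highest signal of 44.7% of the lower probe sets, against 40.2% of all tested. The highest signal of 23.4% of the higher probe sets lay at phase 300 to 360, against 6.76%. Most probe sets of every set had it at phase 0 to 120, the higher, the lower and the rest alike.

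**Figure D5:**
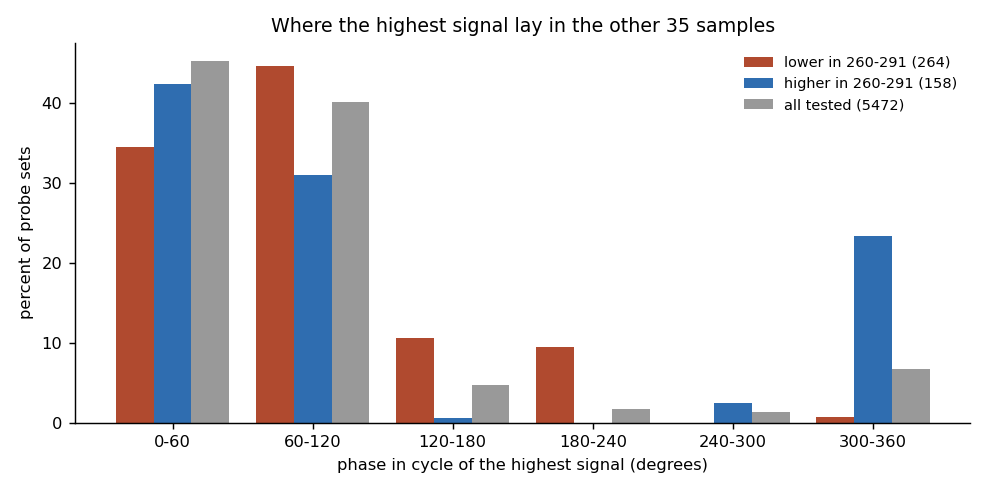
Percent of probe sets (vertical axis) whose highest signal among the 35 samples outside the windows and the first and last pairs lay in each 60-degree bin of phase (horizontal axis), for probe sets called lower, called higher and all tested. Lower probe sets exceed all tested in the bins from 60 to 240 degrees (44.7%, 10.6% and 9.47%, against 40.2%, 4.75% and 1.72%). Higher ones exceed all tested in the bin from 300 to 360 degrees (23.4%). With the windows left out, the bin from 180 to 240 degrees holds no sample beyond phase 201.05. The bin from 240 to 300 degrees holds only the sample at phase 299.17.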

How the data were processed

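Labelled RNA from each sample was hybridized to 1 array, and the authors deposited 1 linear intensity per probe set, computed by GCOS per the submitters' processing notes, which give neither version nor settings. Of 10928 probe sets, 5498 carry 1 S. cerevisiae gene in the platform annotation, and 12 symbols were updated. Each array was set to the same median over these, and log2 signals were used with a floor at 1. Probe sets with a mean deposited signal over 49 arrays above 11.71, the 75th percentile of 1746 probe sets of another species, were tested (5472, with 26 removed). Where a gene had several, as 41 had, the one with the highest mean stands for it, and calls differed in 6.

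Windows were compared with lmFit and eBayes of limma 3.58.1 (R 4.3.3; Python 3.11.15, pandas 2.3.3, numpy 2.4.6, matplotlib 3.10.9), adjusted by Benjamini-Hochberg at 0.05, without covariates. "Lower" and "higher" refer to that threshold, and folds are back-transformed differences of mean log2 signals. Slopes came from 1 fit with a mean and a slope on phase per window. Signals of different probe sets are not compared as levels. On simulated data the window test recovered 82% of probe sets changed 1.25-fold and 100% at 1.5-fold, with 9 unchanged ones called among 5472 simulated. The slope test recovered 82% at 1.5-fold per 30 degrees, with 8 unchanged ones called. The simulated noise was independent from sample to sample and had no array-wide effect. These rates therefore do not cover errors shared by neighbouring samples or by whole arrays. The number of arrays limits the precision.

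The samples compared, the 40 gene lists, the tests and the genes named were chosen with earlier results of these data known, and the slope fits after these data were seen. The genes named were the 12 with the largest difference each way among called genes whose groups do not overlap, the 2 largest called members of each list each way, and a set of landmark genes. Not all are printed, and other genes are said to be chosen after their values were seen. Alternatives were the values as deposited, quantile normalization, other filters and offsets, an intensity trend, the spread from 14 samples, samples 1, 3 and 5 of each window, array number as a term, differences within the ends, and each sample left out in turn. Gene neighbours came from a RefSeq gene table of assembly R64, and no coordinates or sequences are printed.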

Additional observations from a re-analysis of the deposited data

Results flagged for a closer look

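In each window of 5 samples, the highest or lowest signal of every named gene was compared with the other 4, and it was singled out when its gap to the nearest was over 0.71 of the window's range (Dixon's criterion). Of 160 groups examined 9 were singled out, and chance alone singles out about 1 in 20 such groups. The array at phase 259.84, the first of its window, gave 5 of the 9 cases. There DSE2 had a signal of 8266.9 against 10347 to 10804 in the other 4, SUN4 6214.9 against 7410 to 7595, and CTS1 12323 against 15301 to 15962. RNR1 had 1587.5 there against 1917 to 2033, and YLR412C-A 8.7 against 1.7 to 3.4. At phase 224.01, whose array stood apart at dim probe sets, GAT3 had 76.9 against 13.5 to 25.5. TUB1 had 7623.3 at phase 208.70 against 6537 to 6756. CYC7 had 3200.8 at phase 275.57 against 2666 to 2810.2, and DIM1 had 1140.9 at phase 231.67 against 702 to 748.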

How the results depend on the processing

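The number of calls depended on scaling and on the number of samples. As deposited, 27 probe sets were higher and 63 lower, with 78 of the 422 called in both, and quantile normalization gave 317 higher. With samples 1, 3 and 5 of each window 0 were called in either direction (722 at an unadjusted p below 0.05 in limma, smallest adjusted p 0.0819), and within the ends 4 were higher and 25 lower. Leaving out 1 sample gave 69 to 207 higher and 159 to 269 lower. The higher count moved by over 1.5 times without the sample at phase 208.70 (104), 216.36 (70), 275.57 (83), 283.44 (69) or 291.30 (73), and the lower count without that at phase 216.36 (165), 283.44 (159) or 291.30 (159). As deposited, 0 probe sets differed between the first 2 and last 2 samples (1054 at an unadjusted p below 0.05 in limma), and 0 to 10 did without 1 of these 4 samples. Slopes called within the early window numbered 7 as deposited and 0 to 55 without 1 sample, those within the late window 2089 and 6 to 28, and differences of slopes 1973 and 0 to 30, or 60 with quantile normalization.

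Among 80 named genes, 68 of them called, YER188C-A alone of those called changed sign, to 0.285 within the ends; the calls of 18 others were lost without 1 sample. Genes near 0 changed sign: SIC1 (0.094 within the ends, -0.167 to 0.015 without 1 sample), PCL9 (-0.097 within the ends, -0.034 with array number, -0.135 to 0.104 without 1 sample) and CLN3 (0.285 within the ends, -0.001 with array number, -0.038 to 0.036 without 1 sample). The slope of AAH1 within the late window was -0.022 as deposited. The causes were not tested. No paired analysis was possible because replicate numbers only follow the order of the samples. Signals below the background limit bound what can be said of dim genes.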
